A study of Mus musculus with 6 samples.

Results

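Glucocorticoid-induced genes were examined in mouse triple-negative breast tumors treated with sulindac sulfide (SS). The set held 10 genes: Nr3c1, Fkbp5, Tsc22d3, Sgk1, Ddit4, Errfi1, Klf9, Zbtb16, Mt1 and Mt2. They were found by gene symbol among the 13730 genes of the deposited count table, and all 10 were present, in 17 of its 20648 transcript entries. The set was put together with results of these tumors in view. Tsc22d3 heads it and is treated as chosen by its measured difference between SS and control tumors, so its values are a description without a test, and the other 9 were chosen by name.

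The study compared RNA from 3 control tumors with RNA from 3 SS tumors. All 6 tumors had grown from 1000000 C0321 cells, mixed with Matrigel, in the mammary fat pad of female FVB mice aged 6 to 10 weeks. C0321 is a single cell line from a Lfng-/- mouse of the FVB background, so both groups carried the loss of Lfng and represent 1 tumor line. From the time a mass could be felt, the SS mice were dosed by mouth with 60 mg/kg daily over 14 days. The sample labels write the drug as a sulfate and the series description gives saline as the control, whereas the paper writes sulindac sulfide and vehicle. The labels list separate tumors and do not tie each tumor to a numbered mouse, so the p-values measure the spread between these tumors.

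Glucocorticoids are steroid hormones that bind the glucocorticoid receptor, which waits in the cytoplasm in a complex with HSP90 chaperones. The bound receptor enters the nucleus, where it activates genes through glucocorticoid response elements and represses many inflammatory genes. Its induced genes include feedback inhibitors of the receptor, mediators of the anti-inflammatory and metabolic response, and metallothioneins, and several of them also answer to stress, metals, insulin or growth factors.

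Control tumors held between 12314368 and 24441522 estimated counts and SS tumors between 8468914 and 13696665. A floor of 3 counts corresponded to between 0.123 and 0.354 CPM, the count scaled to the size of its library, and this floor covers counting error only. After Benjamini-Hochberg adjustment, edgeR's quasi-likelihood test called 0 of 10902 genes at an adjusted p under 0.05, whereas 693 genes had an unadjusted p under 0.05 and DESeq2's Wald test called 36 genes. Changes are given below as the log2 fold change of SS over control ± its standard error. Of the tumor markers, Vim stood between 5875 and 8620 CPM and Krt8 between 417 and 544 CPM, while Epcam stood between 0.041 and 2.98 CPM. Krt18, a keratin of simple epithelia, was at 91.8, 98.1 and 80.4 CPM in control and at 70.0, 59.5 and 61.9 CPM in SS tumors, all SS tumors below all controls, a change of -0.50 ± 0.12. It was the 1 of 14 tested epithelial and tumor markers with an unadjusted p under 0.05, where 6.36% of all genes had one in either direction. Of these 14, 4 were higher and 10 lower with a median of -0.089, among them Cdh1 at 0.41, Cldn7 at 0.36 and Krt8 at -0.096. The value of Epcam was positive with a 95% interval from -0.70 to 5.10. The receptor genes Esr1, between 4.48 and 6.40 CPM, and Pgr, between 0 and 3.82 CPM, were low in all 6 tumors.

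Upstream sequence was looked at first, because the receptor activates genes through response elements. RefSeq promoter windows on GRCm38.p6, which run from 250 bases before to 50 bases after a transcript start, were matched for 8 of the 10 members and gave 16 windows. Nr3c1 was left out by choice, and no window was found for Zbtb16, so neither gene was searched. The sequences are those of the reference strain and not of FVB mice. A full palindromic glucocorticoid response element, the hexamer TGTTCT preceded at a distance of 3 bases by its own reverse complement AGAACA, was searched on both strands. Elements outside these windows, and palindromes with other letters, were not searched. It was found in 3 of all 32851 windows, or 0.00913%, and in 1 of the 16 member windows. That window belonged to Sgk1, and its 250 bases before the start are shown because they hold the only full element in the member windows searched. They lie on the plus strand at chr10:21993640-21993889, directly upstream of transcript NM_001161850 and inside introns of 5 annotated Sgk1 transcripts. Capitals mark the element.
Sgk1 upstream of NM_001161850: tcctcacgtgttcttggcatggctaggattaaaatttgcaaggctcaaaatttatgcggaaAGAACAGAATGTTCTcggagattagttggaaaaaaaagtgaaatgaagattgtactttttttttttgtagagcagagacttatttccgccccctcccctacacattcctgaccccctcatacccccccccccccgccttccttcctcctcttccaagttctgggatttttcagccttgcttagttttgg
The element ended 175 bases before that start and 951 bases before the start of transcript NM_011361. The hexamer TGTTCT alone, which a full element holds on both strands, occurred in 19.0% of all windows and in 4 member windows. These were 3 windows of Sgk1 and 1 window of Tsc22d3, the one before its transcript with the longer genomic span.

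Metal response element cores, written TGCACNC or TGCGCNC and searched on both strands, were counted because metallothionein genes are known to answer to zinc as well as to glucocorticoids. At least 1 core occurred in 25.7% of all windows, and 3 or more cores in 1.97%. The Mt2 window held 4 cores and the Mt1 window 3, while Ddit4 and Sgk1 held 1 core each. The 250 bases before the Mt2 start are shown as the stretch with the most cores in the member windows searched. They lie on the plus strand at chr8:94172368-94172617, where the annotation also places an exon of the antisense non-coding gene Gm45774. Capitals mark the 3 cores in this stretch, and the fourth core lay just after the start.
Mt2 upstream: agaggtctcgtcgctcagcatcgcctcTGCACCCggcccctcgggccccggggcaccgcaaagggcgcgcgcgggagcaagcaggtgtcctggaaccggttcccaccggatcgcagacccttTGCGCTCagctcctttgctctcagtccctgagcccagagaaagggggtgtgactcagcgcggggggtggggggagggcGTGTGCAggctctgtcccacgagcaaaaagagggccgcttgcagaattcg
A match to these letters describes the sequence and is not a measured binding site.

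Of the 10 members, Tsc22d3 was the only 1 whose groups did not overlap and the only 1 at an unadjusted p under 0.05. For all tested genes the share at an unadjusted p under 0.05 was 6.36%, with 3.19% higher in SS. The share whose groups did not overlap was 12.9%, with 6.51% for SS above. Because Tsc22d3 was chosen for its difference, nothing is read from these counts. The mean fold change put 3 members higher and 7 lower in SS tumors, and the median log2 fold change was -0.066 over the 10 members and -0.070 over the 9 members other than Tsc22d3. Over all tested genes the median was -0.0013. Of the 7 lower members, Klf9, Nr3c1, Mt1 and Mt2 turned positive when 1 tumor was left out. The Benjamini-Hochberg adjusted p of these 9 members in edgeR's quasi-likelihood test ranged from 0.871 to 0.976.

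**Figure D1:**
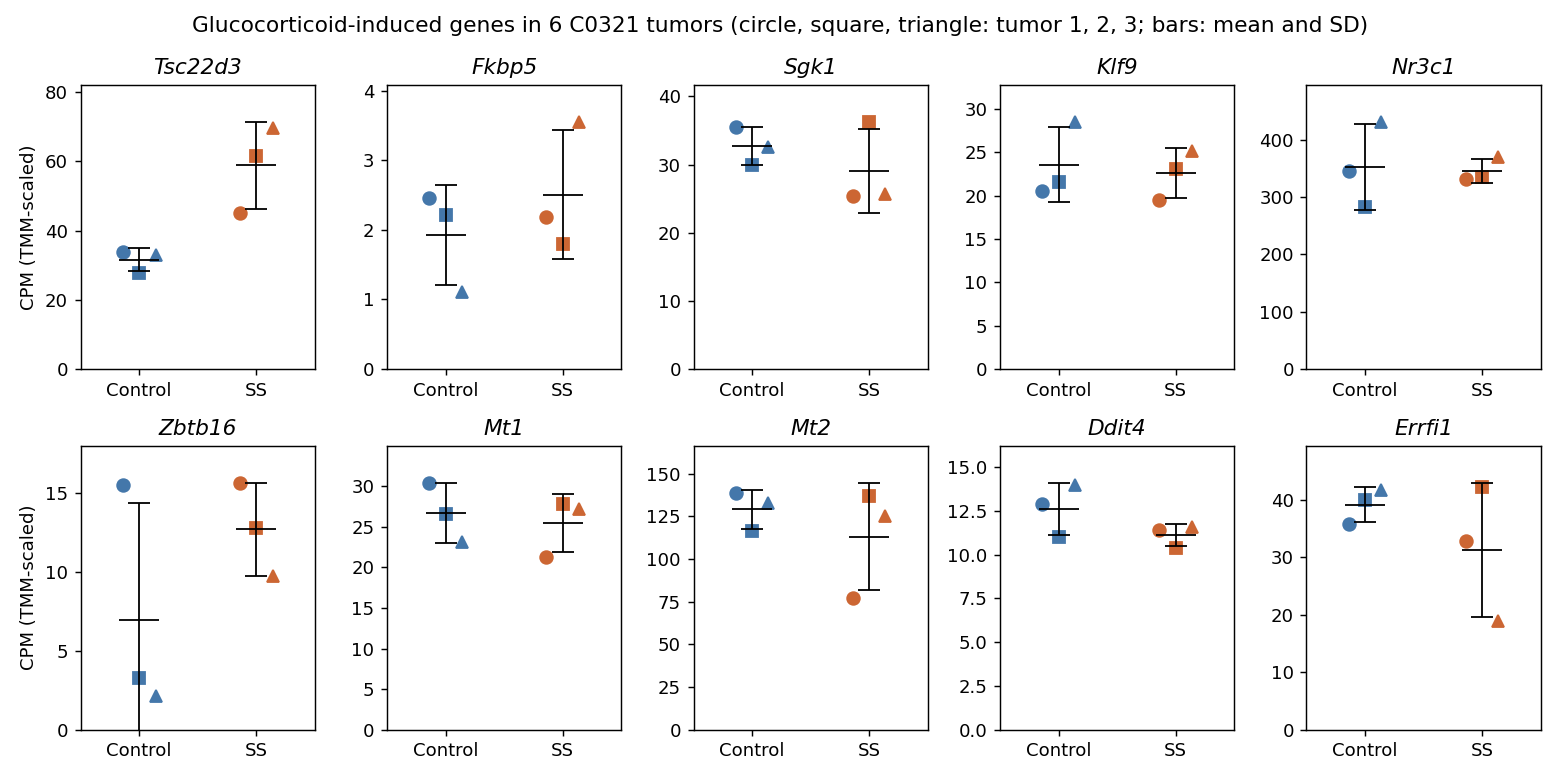
CPM scaled by TMM (trimmed mean of M-values, a library scaling) of the 10 genes in each tumor, with control in blue, SS in orange, and bars for the mean and SD of 3 tumors; axes start at 0, where the lower SD bar of Zbtb16 in control is cut. The Tsc22d3 points of SS, from 45.1 to 69.7 CPM, lie above all control points, and the points of the 9 other genes overlap.

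Tsc22d3 encodes GILZ, a leucine zipper protein that mediates anti-inflammatory effects of glucocorticoids. Its level was 33.9, 27.7 and 33.0 CPM in control tumors 1, 2 and 3. In SS tumors 1, 2 and 3 it was 45.1, 61.6 and 69.7 CPM. Every SS tumor stood above every control tumor, and SS tumor 1 was the nearest to the controls. The mean was 31.5 ± 3.33 CPM (SD, n = 3) for the controls and 58.8 ± 12.6 CPM (SD, n = 3) for SS. This was a log2 fold change of 0.90 ± 0.18, or 1.86-fold, with a 95% interval from 0.48 to 1.32 on the log2 scale. Leaving out each tumor in turn gave values between 0.76 and 1.06. The values rest on 429 to 803 counts per control tumor and 517 to 825 counts per SS tumor.

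The table held 2 Tsc22d3 transcripts on chromosome X, both on the minus strand and both ending at the same place. NM_010286, called the short form by its span from 140539529 to 140543188, took between 98.8% and 100% of the gene's counts. Its transcript length of 1974 bases is the longer, against 1552 bases for NM_001077364, called the long form by its span. NM_001077364 reaches much farther upstream, to 140600523, and had 0, 2.04 and 3.04 estimated counts in control tumors and 7.15, 0 and 4.06 in SS tumors. Counts this low are close to the floor, and the long form was not carried into the transcript test by the filter on low counts. Its share of Tsc22d3 counts was 0.30 percentage points higher in SS, with an exact two-sided permutation p of 0.5 (0.714 after Benjamini-Hochberg adjustment over the 10 shares of Tsc22d3, Sgk1 and Errfi1 transcripts), where 3 tumors against 3 cannot give a p below 0.1. The short form alone had a log2 fold change of 0.89 ± 0.20. Of 15132 tested transcripts, 5.58% had an unadjusted p under 0.05.

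Cell type markers were read beside Tsc22d3, since in bulk tumor RNA fewer cells of a type and less RNA per cell cannot be told apart. Of 10 dendritic cell markers, 8 were in the table, and their summed level ran from 1950 to 3188 CPM in control and from 3058 to 5106 CPM in SS tumors. Of the 6 that were tested, 4 were higher and 2 lower, and Cd74 and H2-Ab1 made up most of the sum. Itgax, an integrin of dendritic cells and macrophages, had a log2 fold change of 1.24 ± 0.24, and H2-Ab1, an MHC class II chain, 0.92 ± 0.21. The MHC class II chaperone Cd74, whose groups overlapped, had a value of 0.61 ± 0.24. Of the rest, Batf3 was at 1.05 ± 0.72, Zbtb46 at -0.23 ± 0.61 and Ccr7 at -0.028 ± 0.80, while Flt3 and Xcr1 were too low to be tested. Endothelial markers, 8 of 10 in the table, summed to between 79.7 and 129 CPM in control and between 109 and 199 CPM in SS tumors. Esam, an endothelial adhesion molecule, differed by 0.58 and Vwf, a clotting factor carrier made by endothelium, by 1.20 on the log2 scale. Of the 7 tested endothelial markers, 6 were higher and 1 lower, with Kdr at -0.17, Cdh5 at 0.12 and Cldn5 at 0.22 among those whose groups overlapped. Macrophage markers, all 10 in the table, overlapped, with sums from 1003 to 1300 CPM in control and from 1051 to 1297 CPM in SS tumors. Pan-leukocyte and T cell markers, 6 of 12 in the table, ran from 62.6 to 148 CPM in control and from 70.4 to 93.5 CPM in SS tumors. Erythroid markers, all 6 in the table, ran from 1892 to 3927 CPM in control and from 853 to 1934 CPM in SS tumors. All 5 that were tested were lower, 4 of them at an unadjusted p under 0.05 where 3.16% of all genes were, namely Hba-a1 at -1.13, Hba-a2 at -0.98, Hbb-bt at -1.05 and Alas2 at -1.96. Skeletal muscle markers, all 8 in the table, ranged from 1122 to 11056 CPM in control and from 335 to 23063 CPM in SS tumors. All 8 had a higher fitted level in SS, with a median log2 fold change of 0.87, but the groups overlapped for each and none had an unadjusted p under 0.05 in edgeR's quasi-likelihood test. Fibroblast and pericyte markers, all 10 in the table, overlapped at 13597 to 19743 CPM and 9899 to 19137 CPM, and so did the 4 neutrophil markers of 8 that were in the table, at 3.59 to 10.5 CPM and 3.10 to 7.10 CPM. No marker in the table could be at 0 in all 6 tumors, since no row summed to fewer than 10 counts. The part of these cell types in the Tsc22d3 difference was not tested.

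Nr3c1, the glucocorticoid receptor itself, was at 345, 282 and 431 CPM in control tumors and at 332, 335 and 369 CPM in SS tumors. All SS values lay inside the range of the controls. The means were 353 ± 74.7 CPM (SD, n = 3) and 345 ± 20.7 CPM (SD, n = 3), and the log2 fold change was -0.030 with a 95% interval from -0.39 to 0.33. Per length, Nr3c1 was among the most abundant members, at 55.7 ± 11.8 CPM per kb (SD, n = 3) in control tumors.

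Fkbp5 encodes FKBP51, a co-chaperone that lowers the receptor's affinity for hormone and is a feedback target in many tissues. It was at 2.45, 2.21 and 1.11 CPM in control tumors and at 2.18, 1.79 and 3.55 CPM in SS tumors. Control tumor 3 was the lowest and SS tumor 3 the highest, with the other 4 tumors close together. The log2 fold change of 0.39 had a 95% interval from -0.74 to 1.53, and the gene had only 15 to 45 counts per tumor. Only the interval of Zbtb16 was wider. The value was 0.052 without SS tumor 3, 0.11 without control tumor 3 and 0.60 without control tumor 1.

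Sgk1 encodes a kinase that regulates ion transport and survival and is induced by glucocorticoids and mineralocorticoids. It was at 35.6, 30.0 and 32.6 CPM in control and at 25.4, 36.2 and 25.6 CPM in SS tumors. SS tumor 2 was above all controls and the other SS tumors below them. The log2 fold change was -0.17 with a 95% interval from -0.58 to 0.24, and leaving out each tumor in turn gave -0.36 to -0.085, the first without SS tumor 2. Its counts were divided by estimation among 6 transcripts, of which NM_001161848 took 64.0, 53.6 and 57.0% in control and 58.0, 54.8 and 30.8% in SS tumors. NM_001161850, the transcript that starts after the element shown above, took 1.59, 1.33 and 1.41% in control and 10.8, 6.79 and 0.763% in SS tumors. In the 3 control tumors and in SS tumor 3 its counts were the same 2.48% of those of NM_001161848, which is a fixed split by the estimation and not a separate measurement. In SS tumors 1 and 2 they were 18.7% and 12.4%. Over the 6 Sgk1 transcripts the exact two-sided permutation p of the shares lay between 0.4 and 1, and because of the fixed split nothing is read from them.

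Ddit4 encodes REDD1, an inhibitor of mTORC1 signaling. Its level was 12.9, 11.0 and 14.0 CPM in control and 11.4, 10.4 and 11.6 CPM in SS tumors. The groups overlapped, and the log2 fold change was -0.18 with a 95% interval from -0.60 to 0.24. Errfi1 encodes MIG6, an inhibitor of EGFR family kinases. Its level was 35.9, 40.0 and 41.8 CPM in control and 32.8, 42.2 and 18.9 CPM in SS tumors. SS tumor 3 was the lowest and SS tumor 2 the highest of the 6. The log2 fold change was -0.33 with a 95% interval from -0.95 to 0.29, and it was -0.070 without SS tumor 3 and -0.60 without SS tumor 2. Its 2 transcripts shared the counts in a fixed proportion, with NM_001356323 at 15.4% in every tumor, so their levels are not separate measurements.

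Klf9 encodes a transcription factor that responds to glucocorticoids and thyroid hormone. It was at 20.6, 21.6 and 28.5 CPM in control and at 19.5, 23.1 and 25.2 CPM in SS tumors. The groups overlapped, and the log2 fold change was -0.062 with a 95% interval from -0.49 to 0.37. Zbtb16 encodes PLZF, a zinc finger transcription factor that is strongly glucocorticoid-inducible in several cell types. It was at 15.5, 3.24 and 2.13 CPM in control and at 15.6, 12.8 and 9.72 CPM in SS tumors. Control tumor 1 was as high as the highest SS tumor, while the other controls lay below all SS tumors. The log2 fold change was 0.90 ± 0.68, with a 95% interval from -0.69 to 2.48. Without control tumor 1 the value was 2.24, and leaving out each tumor in turn gave a range from 0.46 to 2.24.

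Some markers of other tissues were high in the same control tumor, and others peaked elsewhere. Of 13 adipocyte markers, 12 were in the table, and their summed level was 361, 55.3 and 37.6 CPM in control and 197, 232 and 82.2 CPM in SS tumors. Control tumor 1 led, and the other controls were below all SS tumors. Lpl, a lipase of fat cells that other tissues make too, was at 156, 28.6 and 13.7 CPM in control and 95.2, 93.2 and 55.2 CPM in SS tumors. In SS tumor 3, Lpl thus made up 55.2 of the summed 82.2 CPM. Other markers differed in their order. SS tumor 3 was at 10.7 CPM for Lipe, with control tumors 2 and 3 at 7.23 and 5.42 CPM. It was at 8.70 CPM for Pnpla2, with these controls at 14.1 and 10.2 CPM. For Acsl1 it was at 6.76 CPM, with these controls at 4.82 and 8.29 CPM. The adipocyte hormone gene Adipoq was near or below the floor, between 0 and 0.596 CPM, and Plin1 and Pck1 were at 0 in some tumors of both groups. The T cell kinase gene Lck was at 34.7, 7.72 and 8.82 CPM in control and at 12.6, 10.7 and 7.35 CPM in SS tumors. The basal keratin gene Krt5 was at 73.1, 1.13 and 1.44 CPM in control and at 33.9, 26.7 and 0 CPM in SS tumors. Both were again highest in control tumor 1. Krt8, in contrast, was highest in control tumor 2, at 544 CPM. The endothelial sum of 199 CPM and the skeletal muscle sum of 23063 CPM were highest in SS tumor 2. The part of these cell types in the Zbtb16 values was not tested.

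**Figure D2:**
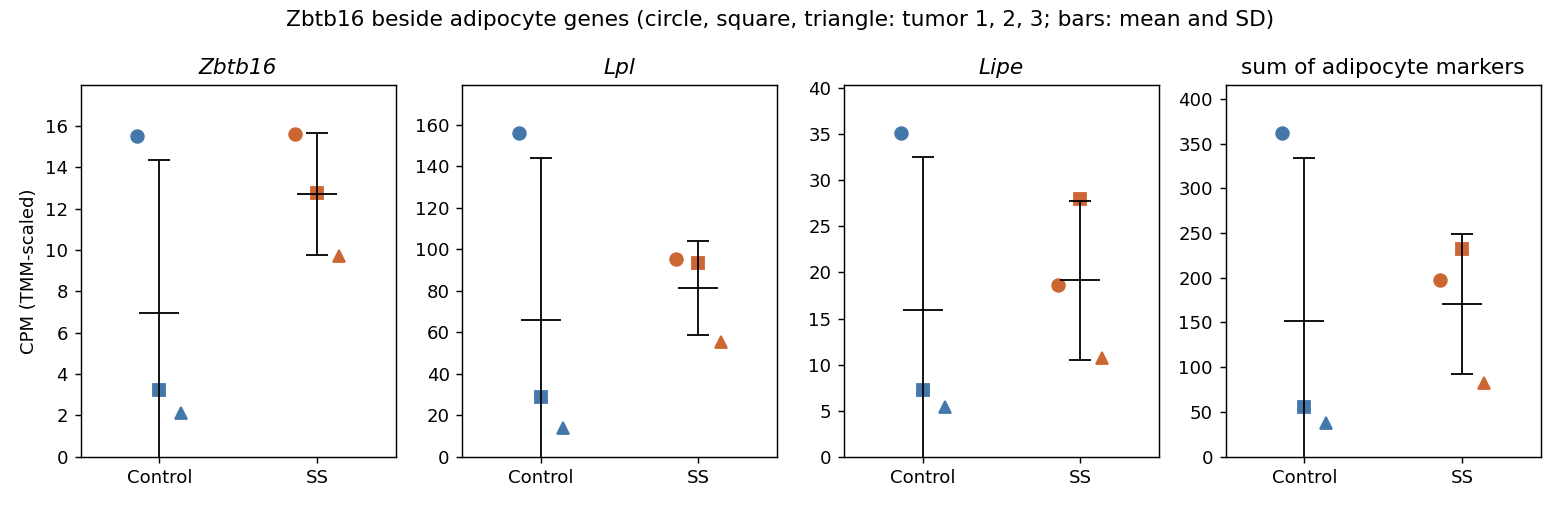
CPM scaled by TMM of Zbtb16, Lpl, Lipe and the sum of the adipocyte markers in each tumor, with control in blue, SS in orange, and bars for the mean and SD of 3 tumors, cut at 0 for control. In each panel control tumor 1 lies apart from control tumors 2 and 3, at 15.5 CPM for Zbtb16 and 361 CPM for the marker sum. SS tumor 3 lies above control tumors 2 and 3 in each panel. For the markers Pnpla2 and Acsl1, which are not drawn, it was not above both of them.

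The metallothioneins Mt1 and Mt2 bind zinc and copper and are induced by metals and glucocorticoids. Mt1 was at 30.4, 26.5 and 23.1 CPM in control and at 21.3, 27.8 and 27.2 CPM in SS tumors. Mt2 was at 139, 116 and 133 CPM in control and at 77.4, 137 and 125 CPM in SS tumors. SS tumor 1 was the lowest of the 6 tumors for both genes, and the groups overlapped. The log2 fold changes were -0.070 for Mt1, with a 95% interval from -0.47 to 0.33, and -0.19 for Mt2, with a 95% interval from -0.67 to 0.28.

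**Figure D3:**
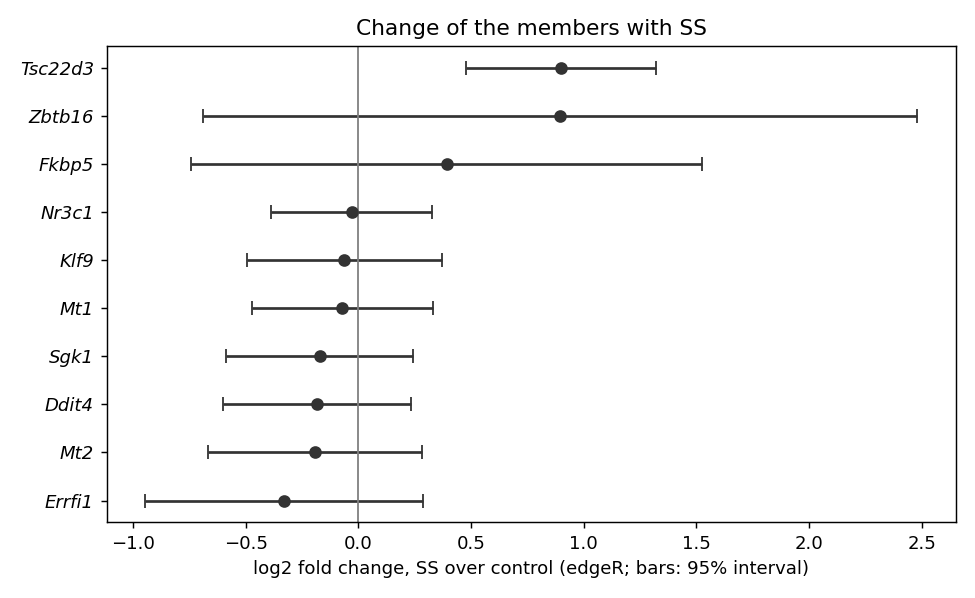
Log2 fold change of SS over control for the 10 genes by edgeR, with 95% intervals as bars. Tsc22d3, the gene chosen by its difference, is at 0.90, and the intervals of the 9 other genes cross 0, with those of Zbtb16 and Fkbp5 the widest.

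Per length, the order of levels was led by Mt2, at 253 ± 22.6 CPM per kb of transcript (SD, n = 3) in control. Nr3c1 and Mt1 followed, and their ranges over the tumors overlapped. Tsc22d3 stood at 16.0 ± 1.68 in control and 29.8 ± 6.35 CPM per kb in SS tumors (SD, n = 3 each). Its lowest tumor, at 14.1 CPM per kb, was just above the highest of Errfi1 and Sgk1. Errfi1, at 12.9 ± 0.99 CPM per kb (SD, n = 3) in control, and Sgk1, at 12.8 ± 1.08 (SD, n = 3), did not differ beyond their spread. Ddit4 and Klf9 followed with overlapping ranges. Zbtb16 and Fkbp5 were lowest, at 1.36 ± 1.45 and 0.54 ± 0.20 CPM per kb (SD, n = 3 each) in control.

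**Figure D4:**
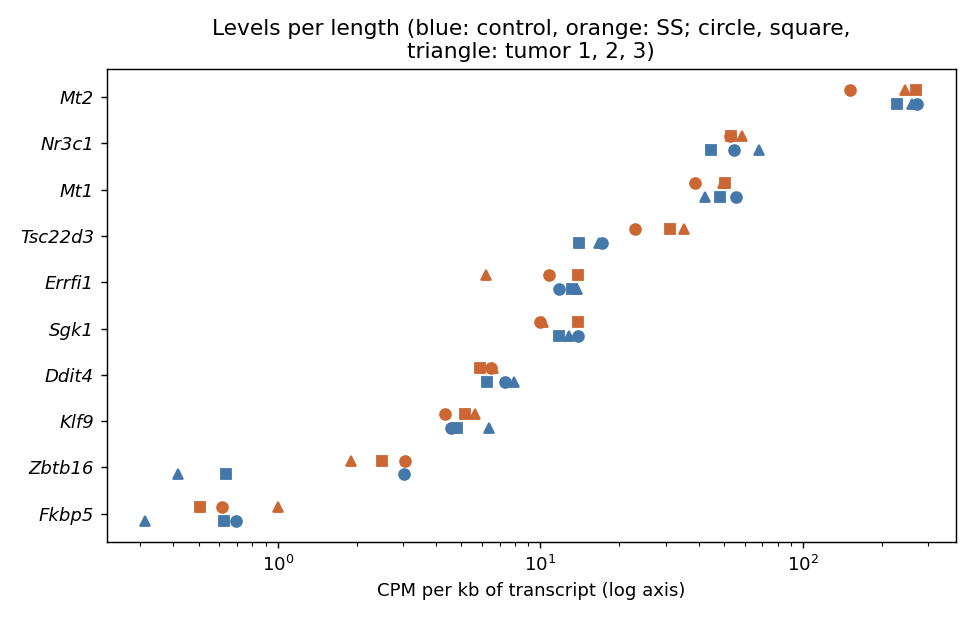
CPM per kb of transcript for each gene and tumor on a log axis, with control in blue, SS in orange, and circle, square and triangle for tumors 1, 2 and 3. Mt2 lies highest, from 152 to 271, and Fkbp5 lowest, from 0.313 to 1.00.

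The genes whose pattern over the 6 tumors was most like that of Tsc22d3 were named by the smallest mean absolute difference in centred log2 CPM. They were Cntf at 0.10, Sertad3 at 0.11, Zbtb14 at 0.12, Cwc27 at 0.13 and Nsun5 at 0.14 log2 units. All 5 were low genes, for example Cntf at 1.60 ± 0.081 CPM (SD, n = 3) among controls and 2.70 ± 0.56 CPM (SD, n = 3) among SS tumors, and their SS tumors stood above the controls because they were picked for that likeness. None of the 9 other members was among these. The nearest, Fkbp5, ranked 2693 among the tested genes at 0.42, and the farthest, Zbtb16, ranked 9726 at 0.81.

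The remaining genes of the glucocorticoid pathway were read from lists, with the members counted wherever they belong. Of 7 receptor and ligand metabolism genes, 5 were tested, of which 1 had a higher and 4 a lower mean in SS tumors, with a median log2 fold change of -0.030. Hsd11b1, the enzyme that regenerates active glucocorticoid, had a value of 0.50 ± 0.52 and was at only 4.43, 2.06 and 2.22 CPM in control and 5.66, 1.79 and 4.65 CPM in SS tumors. H6pd, which supplies its cofactor, had a value of -0.23 ± 0.14. Hsd11b2, which inactivates glucocorticoid, reached at most 1.74 CPM and was not tested.

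Of the 14 receptor chaperones, 4 were higher and 10 lower, with a median of -0.079. An unadjusted p under 0.05 was found for 1, against 6.36% of all genes in either direction and 3.16% in the lower direction. The list's count is thus near the background. The 1 gene was Hsp90aa1, the stress-inducible HSP90 that holds the receptor ready for hormone. It was at 439, 473 and 523 CPM in control and at 399, 348 and 416 CPM in SS tumors, all SS tumors below all controls. The log2 fold change was -0.30 ± 0.11 (edgeR's quasi-likelihood test, adjusted p 0.771).

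Of 30 other genes that glucocorticoids induce, 27 were in the table and 24 tested, 9 higher and 15 lower, with a median log2 fold change of -0.073. Zfp36, which encodes the mRNA decay factor tristetraprolin, was the 1 with an unadjusted p under 0.05, against 6.36% of all genes in either direction and 3.16% in the lower direction, so the list's count is near the background. It was at 14.8, 10.7 and 15.1 CPM in control and at 8.06, 9.30 and 9.21 CPM in SS tumors, all SS tumors below all controls. Its log2 fold change was -0.61 ± 0.21. Per1, a circadian repressor, at 0.20, and Dusp1, a MAP kinase phosphatase, at -0.058 were looked up after their values had been seen, as widely used reporters of glucocorticoid action.

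Of 18 genes that glucocorticoids repress, 11 were in the table and 9 were tested, 3 higher and 6 lower, with a median of -0.12 and none at an unadjusted p under 0.05 by edgeR's quasi-likelihood test. The matrix metalloproteases Mmp13 and Mmp9 had values of 0.42 ± 0.46 and -0.65 ± 0.47. Among 10 tested relatives of the members, 5 were higher and 5 lower with a median of 0.018, from Sgk3 at 0.28 to Tsc22d2 at -0.12. The other relatives of Tsc22d3, named after their values had been seen, were Tsc22d1 at -0.026 and Tsc22d4 at 0.22. Among 20 tested partners and downstream genes of the members, 8 were higher and 12 lower with a median of -0.036, from Tsc1 at 0.32 to Fos at -0.64.

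Of 11 zinc and metal response genes, 4 were higher and 7 lower, with a median of -0.033. Slc39a6, a zinc importer, was at 66.9, 63.2 and 58.1 CPM in control and at 26.6, 44.1 and 53.8 CPM in SS tumors. All SS tumors were below all controls, SS tumor 1 by the most, and the log2 fold change was -0.60 ± 0.24. In these lists the smallest Benjamini-Hochberg adjusted p of edgeR's quasi-likelihood test was 0.771.

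**Figure D5:**
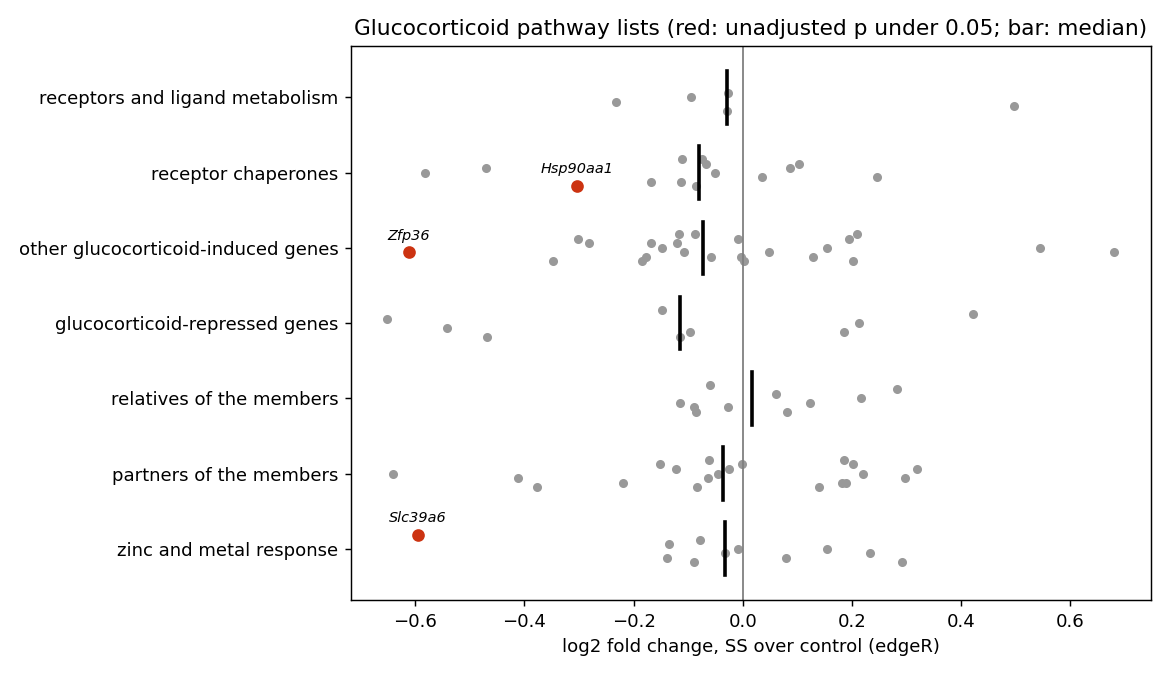
Log2 fold change of SS over control by edgeR for each tested gene of 7 lists, with a black bar for the median of a list and red for an unadjusted p under 0.05. The medians lie between -0.12 and 0.018, and the 3 red genes are Hsp90aa1, Zfp36 and Slc39a6.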

How the data were processed

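Per the labels, libraries were stranded, polyadenylated and sequenced from both ends at a length of 75 bases. The authors deposited estimated counts for each RefSeq transcript, not normalized and without low entries: no row summed to fewer than 10 counts. The submitters' processing notes name mm10, CASAVA 1.8.1, Bowtie2 2.2.5 and STAR 2.5.3a. The counting tool is not given in the sources used here. Estimation divides reads among isoforms, so gene sums are firmer than transcript values.

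Counts were summed by symbol and rounded, with 22 date-like symbols replaced by way of their accessions. Genes were compared in R 4.3.3 by edgeR 4.0.16 (TMM, filterByExpr, quasi-likelihood test), and p-values of the 10902 genes kept were adjusted after Benjamini and Hochberg. Levels per length used GENCODE M21 transcript lengths matched by RefSeq accession. Transcript shares were compared with exact two-sided permutation tests over tumors. The members and lists were chosen with earlier results of these data known. Named genes are the members, list genes at an unadjusted p under 0.05 or otherwise the most positive and most negative gene of a pathway list, and the 5 genes nearest to Tsc22d3. Markers are given mainly as counts and summed levels. A few other genes were named after their values had been seen. A further list of pathway genes is not reported here.

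Alternatives were RLE and upper-quartile scaling, other filters, DESeq2 1.42.0, and limma 3.58.1 with voom and sample weights. Further ones were quantile normalization with a t statistic, a replicate block, and leaving out each tumor. The paper also names quantile normalization and a t-test, and it reports genes that passed its FDR threshold. Its own steps were not rerun here, so the count under quantile normalization is not a count by the study's method.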

Additional observations from a re-analysis of the deposited data

How the results depend on the processing

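Benjamini-Hochberg adjustment left 0 genes under each alternative except DESeq2's Wald test, which called 36 genes. For transcripts, fitted with RLE scaling, without a filter, with DESeq2, with the replicate block and with each tumor left out, DESeq2 called 128 and the others 0. The Tsc22d3 log2 fold change was 0.90 with DESeq2, which alone put the gene past adjustment, but the gene was chosen by this difference, so that no p-value for it is a test. Leaving out each tumor gave Tsc22d3 values from 0.76 to 1.06. The number of members at an unadjusted p under 0.05 was 1, and 2 with limma-voom and with the replicate block, where Zbtb16 joined Tsc22d3. The log2 fold change of Zbtb16 was 1.58 ± 0.55 with limma-voom and 1.37 ± 0.49 with the replicate block. Leaving out each tumor gave 1 to 2 members, with Zbtb16 joining without control tumor 1 and Errfi1 without SS tumor 2. Signs turned for members near 0: Klf9 was 0.10 without control tumor 3 and 0.033 without SS tumor 1, Nr3c1 was 0.040 with limma-voom and 0.14 without control tumor 3, Mt1 was 0.032 without control tumor 1 and 0.041 without SS tumor 1, and Mt2 was 0.019 without SS tumor 1. Leaving out each tumor gave ranges from -0.15 to 0.10 for Klf9, -0.17 to 0.14 for Nr3c1, -0.16 to 0.041 for Mt1 and -0.35 to 0.019 for Mt2. The SS minus control share of the long Tsc22d3 transcript ran from -0.0010 percentage points when SS tumor 1 was left out to 0.57 for SS tumor 2. The cause was not tested.

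With the replicate number as a block, 0 genes passed adjustment and the Tsc22d3 value was 0.88. Deviations of same-numbered tumors correlated at 0.12, 0.021 and 0.077, so the numbers were not taken to pair the tumors. Depth limits Fkbp5, with 15 to 45 counts per tumor, and the long Tsc22d3 transcript.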
